A study of Homo sapiens with 18 samples.

Results

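The 9 genes described here encode proteins on the surface of prostate cancer cells that imaging agents, antibodies, antibody-drug conjugates or engineered T cells have been directed against: FOLH1, STEAP1, STEAP2, CD276, ERBB2, ERBB3, PSCA, EPCAM and TMEFF2. They were chosen by symbol from a table of 60623 genes, and all 9 of 9 passed the expression filter that left 16169 genes for testing. The cells sequenced were 16D, a human cell line of castration-resistant prostate cancer (CRPC), with the genotype labelled WT, in RPMI medium with 10% FBS. There were 6 groups of 3 libraries: a DMSO control with no stated harvest time, 10 µM enzalutamide for 24 h, 48 h, 96 h or 144 h, and the same drug over more than 2 months (long-term). Enzalutamide is an antiandrogen drug. All libraries come from 1 line, and the labels do not say whether replicates are separate cultures or whether the long-term cells are a selected clone, so p-values measure only the spread between these libraries. Values are TPM, a share of each library's transcripts after scaling for gene length, and the read depth behind them is unknown. In such bulk values fewer cells carrying a transcript and less of it per cell cannot be told apart, and a transcript level is not a level of surface protein.

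As background, FOLH1 encodes prostate-specific membrane antigen (PSMA), a glutamate-cleaving ectoenzyme that radioligands bind and whose amount is known to rise in many prostate cancer cells under androgen deprivation. STEAP1 and STEAP2 belong to a family of metalloreductases of the plasma membrane and endosomes, CD276 is the immune checkpoint ligand B7-H3, and PSCA is a small protein of the LY6 family held by a lipid anchor. ERBB2 (HER2) has no known ligand of its own and signals in pairs with other ErbB receptors, above all with the neuregulin receptor ERBB3 (HER3), whose own kinase is weak. EPCAM is an epithelial adhesion protein used to capture circulating tumour cells, and TMEFF2 is a membrane protein with follistatin-like and EGF-like domains that is made mainly in brain and prostate.

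The label of the line was checked against marker genes. All 10 of 10 luminal prostate markers passed the filter, and they summed to 1211 to 1403 TPM in long-term libraries and to 2781 to 2925 TPM in DMSO libraries. Of the markers of other cell types, 0 of 4 basal, 0 of 6 leukocyte, 1 of 6 neuroendocrine (SYP), 1 of 4 endothelial (VWF) and 1 of 6 fibroblast genes (COL1A1) passed, and KRT5 and COL1A2 were listed at 0 in every library. COL1A1 moved between groups, with 29.4 ± 8.40 TPM at 144 h and 7.25 ± 1.09 TPM in long-term libraries, against 14.5 ± 0.930 TPM in DMSO, and the 6 neuroendocrine genes summed to 4.06 to 4.15 TPM in long-term libraries, against 1.18 to 1.52 TPM in DMSO; their part in the results below was not tested. KLK3, which encodes prostate-specific antigen and is induced by androgen, was lower than in DMSO by -1.70 at 24 h, by -4.86 at 144 h and by -2.84 in long-term cells on the log2(TPM + 1) scale. Long-term cells were thus 2.02 higher than 144 h cells in KLK3 (adjusted p = 2.66e-13). The 37 mitochondrially encoded genes took 26.4% ± 3.91 of TPM in long-term libraries, against 19.8% ± 2.34 at 144 h and 19.4% ± 1.49 in DMSO libraries (SD, n = 3 each).

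The 9 genes fell into 4 patterns over time. TMEFF2 and PSCA were lower at each treated time. FOLH1 and CD276 were higher at 144 h and were not called in long-term cells on the deposited scale. ERBB2, called higher at every time from 24 h to 144 h, and STEAP2, higher at 96 h and 144 h, were both lower in long-term cells. STEAP1, ERBB3 and EPCAM passed the test in no comparison of the timed groups with DMSO on the deposited scale. These genes were all lower in long-term cells. Fold changes below are differences of mean log2(TPM + 1), which understate the change of low genes, and a gene is called changed at an adjusted p under 0.05 from limma over all genes tested. Standard errors of these differences were the same in every comparison for a gene and ran from 0.07 (ERBB2) to 0.15 (PSCA). The 3 DMSO libraries serve in each comparison with DMSO, which are therefore not independent.

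**Figure D1:**
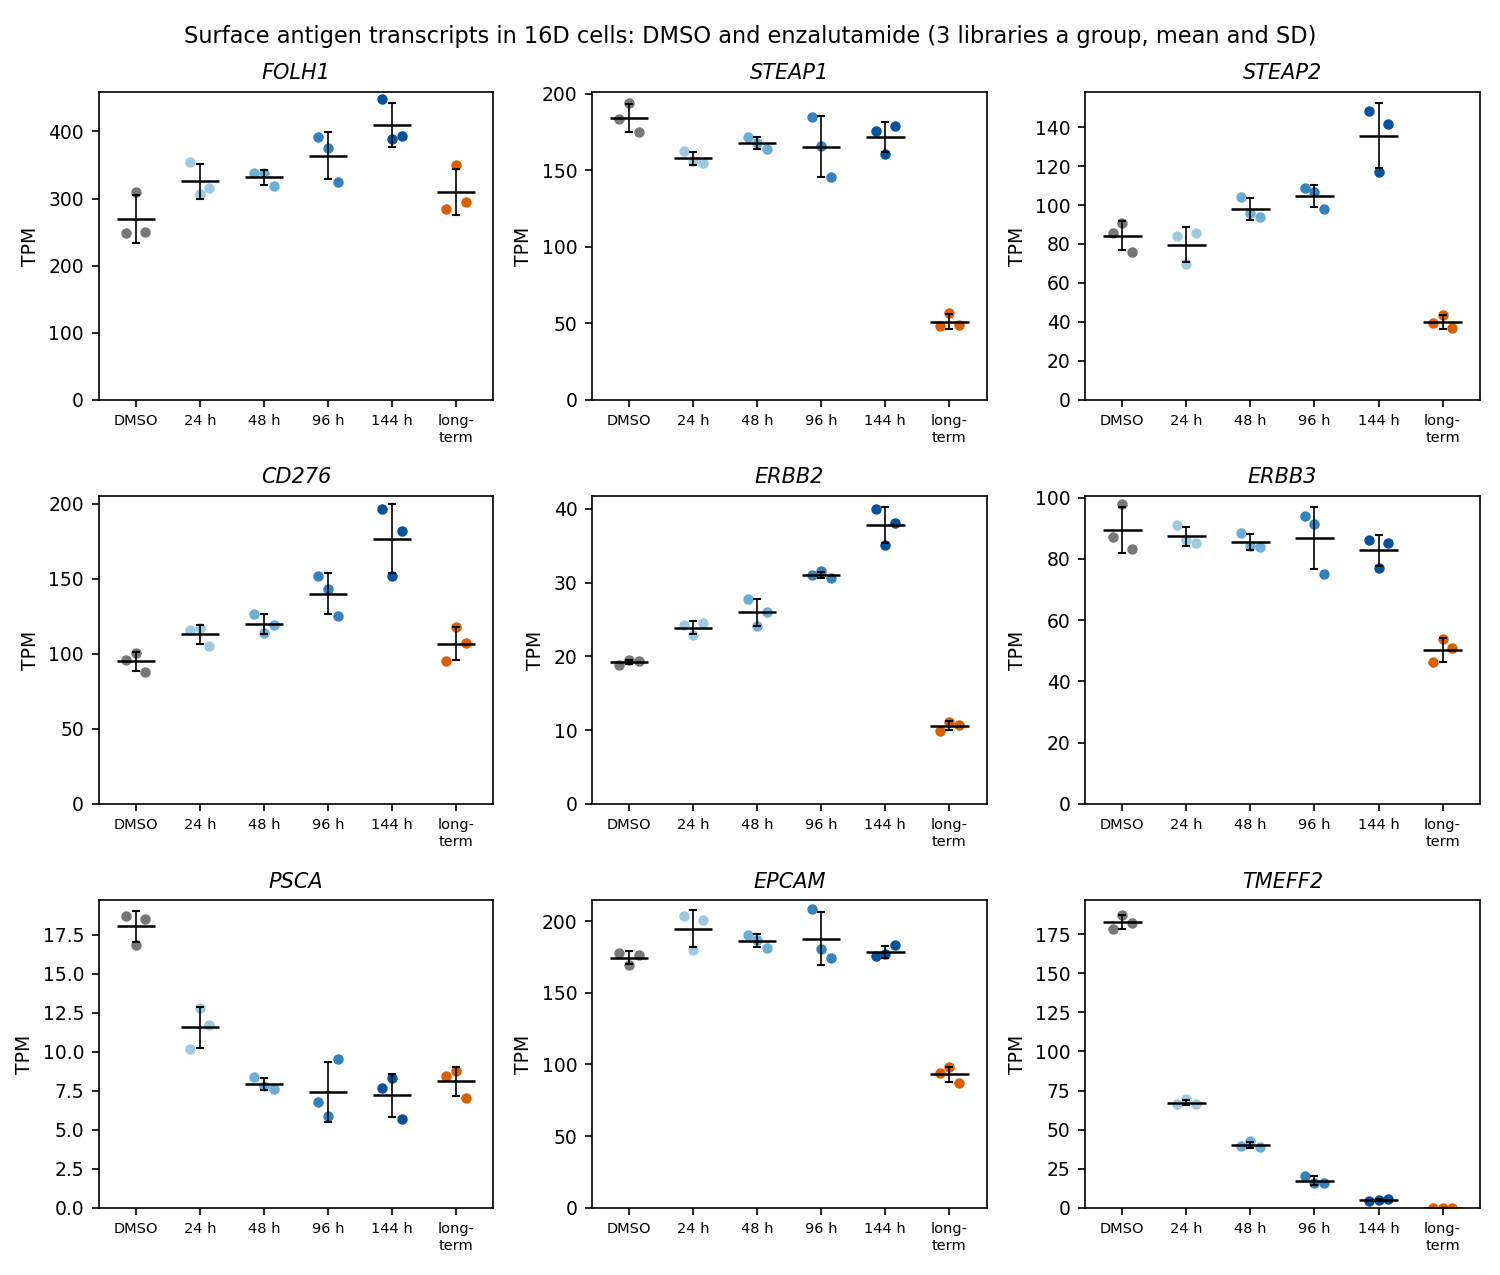
TPM (y axis, from 0) of each of the 9 genes in the 6 groups (x axis), with points for the 3 libraries of a group and black bars for the mean and SD. TMEFF2 is lower in each group than in the one before it, FOLH1, CD276 and ERBB2 are highest at 144 h, and STEAP1, ERBB3 and EPCAM step down in the long-term group.

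At 24 h, 1 of the 9 genes was called higher, where 4.59% of all genes tested were, and 2 were called lower, where 3.58% were. At 48 h, 3 were called higher (9.38% of all genes) and 2 lower (8.08%). At 96 h, 4 were called higher (16.5% of all genes) and 2 lower (12.7%), and at 144 h again 4 were called higher (26.6%) and 2 lower (16.4%). In long-term cells 0 were called higher, against 18.1% of all genes, and 7 were called lower, against 33.9%. The median log2 fold change of the 9 genes was 0.03 at 144 h and -0.90 in long-term cells, beside medians over all genes tested of 0.07 and -0.12.

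TMEFF2 had 179, 188 and 182 TPM in DMSO libraries, 66.4, 69.3 and 66.2 TPM at 24 h, and 39.8, 42.5 and 38.8 TPM at 48 h. It had 20.5, 15.7 and 15.8 TPM at 96 h, then 4.25, 5.11 and 5.37 TPM at 144 h. Of the long-term libraries, 2 had 0.05 TPM and the other was listed at 0. Each group lay below the one before it with no overlap, so that by rank of level among the 16169 genes tested TMEFF2 stood at 853 in DMSO, 2525 at 24 h, 6806 at 96 h and 10703 at 144 h. Its mean was 36.8% of the DMSO mean at 24 h, 22.1% at 48 h, 9.50% at 96 h and 2.69% at 144 h. The log2 fold change against DMSO was -1.43 ± 0.09 (SE, adjusted p = 2.90e-08) at 24 h and -4.96 (adjusted p = 1.10e-15) at 144 h, the latest timed group. Only 1 of the 16169 genes had a lower log2 fold change than TMEFF2 at 144 h, and likewise in long-term cells, where its own was -7.47 (adjusted p = 1.68e-18). Between 144 h and 24 h it differed by -3.54 (adjusted p = 2.31e-13), the lowest value of all genes tested in that comparison. With a pseudocount of 0.1 in place of 1 the long-term change was -10.4. The related TMEFF1 did not pass the filter and reached at most 0.86 TPM in any library.

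PSCA, which lies at chr8:142670308-142682724 on the plus strand (GRCh38), had 18.7, 16.9 and 18.5 TPM in DMSO libraries and 10.2, 12.8 and 11.8 TPM at 24 h. From 48 h it stayed under 10 TPM in all libraries, with 7.68, 8.31 and 5.68 TPM at 144 h and 8.46, 8.79 and 7.06 TPM in long-term libraries. No treated library reached the lowest DMSO library. Its mean was 64.1% of the DMSO mean at 24 h, 43.9% at 48 h, 40.0% at 144 h and 44.9% in long-term cells. The log2 fold change was -0.60 ± 0.15 at 24 h (adjusted p = 0.0167), -1.09 at 48 h (adjusted p = 6.67e-05), -1.22 at 144 h (adjusted p = 5.39e-06) and -1.07 in long-term cells (adjusted p = 1.42e-05). The call at 24 h ended without DMSO replicate 1, without DMSO replicate 3 or without 24 h replicate 1, with adjusted p of 0.0648, 0.0581 and 0.0814. Long-term and 144 h libraries overlapped, and their difference of 0.16 (95% interval -0.16 to 0.47) did not pass the test. PSCA overlaps the gene JRK, so reads of the shared stretch may be split between them in a way that cannot be seen here.

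Of 11 other LY6 family genes listed with PSCA, 5 passed the filter. At 144 h 4 were called higher (26.6% of all genes) and 1 lower (16.4%), while in long-term cells 3 were higher (18.1%) and 1 lower (33.9%). LY6E, the most abundant of them and itself tried as an antibody target, fell by 0.69 on the log2 scale at 144 h. It averaged 185 ± 33.3 TPM at 144 h and 214 ± 24.5 TPM in long-term libraries, against 297 ± 6.80 TPM in DMSO libraries (SD, n = 3 each). Its long-term change of -0.48 lost its call under quantile normalization (adjusted p = 0.0670). SLURP1, a secreted LY6 protein, had 2.57, 3.46 and 2.26 TPM in long-term libraries, against 0.19, 0.3 and 0 TPM in DMSO libraries (log2 fold change 1.69). The median log2 fold change of the 5 genes was 0.52 at 144 h and 0.44 in long-term cells, beside 0.07 and -0.12 over all genes tested, while PSCA itself was lower at both.

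FOLH1, at chr11:49146635-49208670 on the minus strand, had the highest mean TPM of the 9 genes in every group. It had 249, 310.1 and 249 TPM in DMSO libraries and 355, 306 and 316 TPM at 24 h. These groups overlapped, because DMSO replicate 2 stood above the other DMSO libraries and above 24 h replicate 2. The 24 h difference of 0.28 did not pass the test (adjusted p = 0.111), but FOLH1 was called higher without DMSO replicate 2 (0.38, adjusted p = 0.0304) and under the 3 other scalings (adjusted p 0.0102 to 0.0225). At 48 h it had 339, 338 and 319 TPM, at 96 h 392, 376 and 325 TPM, and at 144 h 448, 388 and 393 TPM, and none of these overlapped DMSO. The log2 fold change against DMSO was 0.31 at 48 h (adjusted p = 0.0442), 0.44 at 96 h (adjusted p = 0.00343) and 0.61 at 144 h (adjusted p = 1.24e-04), where the mean was 152% of the DMSO mean. The 48 h call ended when any 1 of 5 libraries was left out (adjusted p 0.0717 to 0.163), with no filter (0.108), with a fit of both groups alone (0.0522) and without the variance trend (0.0655). In long-term cells FOLH1 had 285, 349 and 295 TPM, which overlapped DMSO, and the log2 difference of 0.20 (95% interval -0.01 to 0.41) did not pass the test (adjusted p = 0.102).

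CD276, at chr15:73683966-73714518 on the plus strand, had 96.0, 100.7 and 87.7 TPM in DMSO libraries, 116, 117 and 105 TPM at 24 h, and 127, 114 and 119 TPM at 48 h. It reached 151, 143 and 125 TPM at 96 h and 197, 152 and 182 TPM at 144 h. All treated libraries up to 144 h stood above all DMSO libraries, and the 144 h mean was 186% of the DMSO mean. The log2 fold change was 0.34 at 48 h (adjusted p = 0.0273), 0.56 at 96 h (adjusted p = 4.62e-04) and 0.88 at 144 h (adjusted p = 2.37e-06), and it was 0.25 at 24 h without passing (adjusted p = 0.154). At 24 h CD276 was called higher under quantile normalization (adjusted p = 0.0138) and with the mitochondrial genes left out (adjusted p = 0.0343). The 48 h call ended with no filter (adjusted p = 0.0669) and without any 1 of 4 libraries (0.0621 to 0.108). Long-term libraries had 95.4, 118 and 107 TPM and overlapped DMSO, with a difference of 0.17 (95% interval -0.04 to 0.38).

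The long-term values of FOLH1 and CD276 depended on the scaling. Median-of-ratios scaling, quantile normalization and rescaling with the mitochondrial genes left out gave 0.33, 0.38 and 0.34 for FOLH1 and 0.30, 0.34 and 0.30 for CD276, and both genes were called higher under each. The median of all genes tested, -0.12 in that comparison, was -0.02 under median-of-ratios scaling and -0.01 with the mitochondrial genes left out. FOLH1 was also called higher without DMSO replicate 2 (0.31, adjusted p = 0.0183).

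The nearest relatives of both were listed for comparison. FOLH1B, a near copy of FOLH1 whose reads could be split with it, reached at most 0.62 TPM. Of 4 PSMA relatives only NAALADL2 passed the filter, and it was called higher at 144 h (34.7 ± 4.91 TPM, against 16.1 ± 1.22 in DMSO, log2 fold change 1.06) and in long-term cells (25.7 ± 2.36 TPM, log2 fold change 0.65). Of 13 relatives of CD276 among B7 and butyrophilin genes, 6 passed. At 144 h 2 were called higher (26.6% of all genes) and 2 lower (16.4%), with a median of 0.06. The counts were the same in long-term cells (18.1% and 33.9% of all genes), with a median of 0.04. The 144 h median was -0.01 under median-of-ratios scaling and -0.12 under quantile normalization. BTN2A2, a butyrophilin that restrains T cells, averaged 10.4 ± 1.01 TPM at 144 h and 7.96 ± 0.709 TPM in long-term cells, against 3.87 ± 0.750 TPM in DMSO. CD274, which encodes the checkpoint ligand PD-L1, stood much lower, with 1.69, 2.23 and 1.93 TPM at 144 h, against 0.54, 0.47 and 0.96 TPM in DMSO (log2 fold change 0.84).

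**Figure D2:**
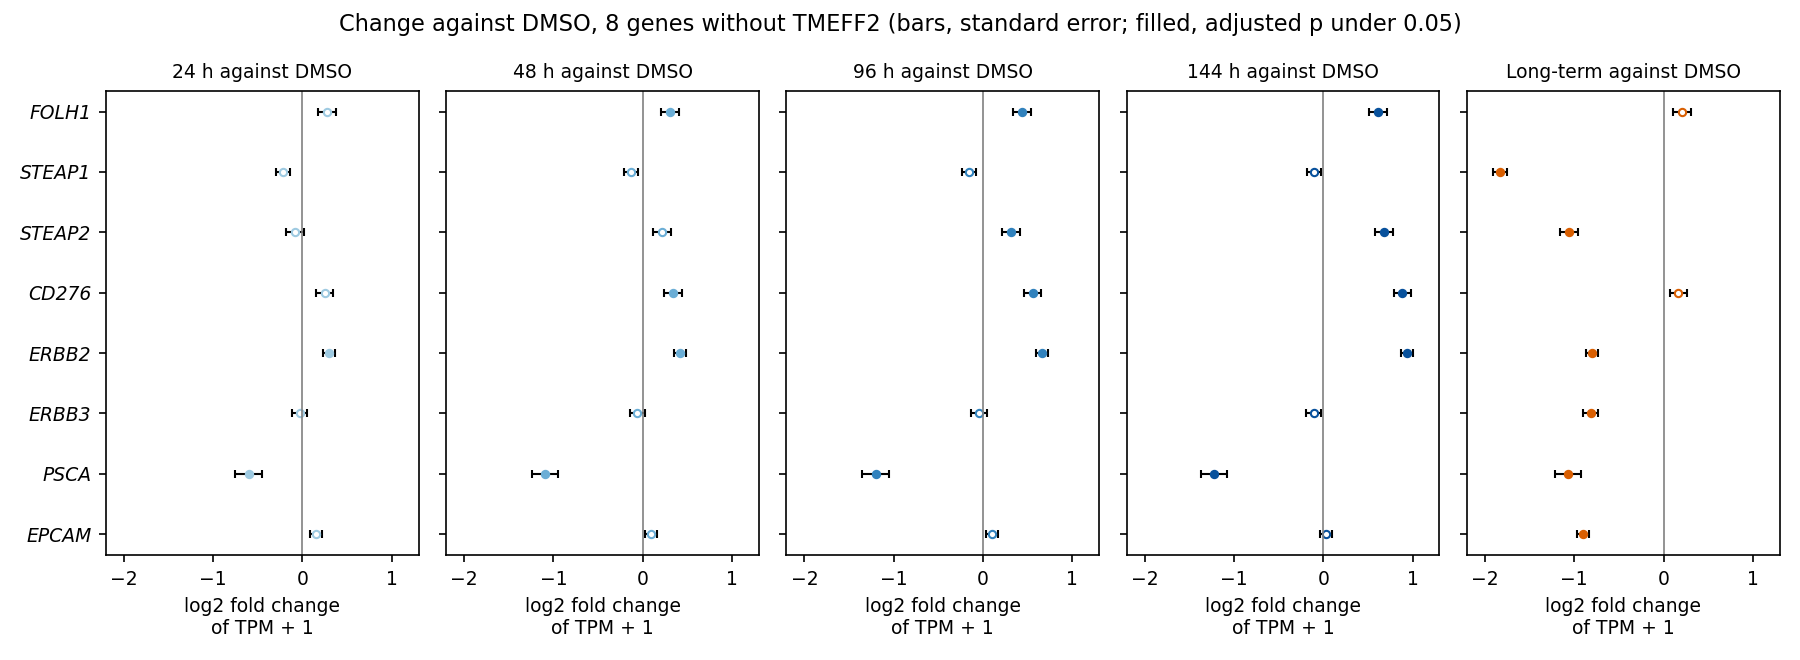
Log2 fold change of TPM + 1 against DMSO (x axis) of 8 genes (rows), with a panel for each treated group, bars for the standard error and filled points where the adjusted p was under 0.05; TMEFF2, from -1.43 at 24 h to -7.47 long-term, lies outside the axis and is not drawn. FOLH1, CD276 and ERBB2 move right up to 144 h, and 6 of the 8 genes are filled and left of 0 in the long-term panel.

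STEAP1 and STEAP2 lie side by side on chromosome 7, STEAP1 at chr7:90154375-90164829 and STEAP2 at chr7:90167590-90238137, both on the plus strand and 2760 bases apart. STEAP1 had 184, 194 and 175 TPM in DMSO libraries and between 146 and 185 TPM in all libraries from 24 h to 144 h. None of these timed groups passed the test. All 24 h (155 to 163 TPM) and 48 h (164 to 172 TPM) libraries lay below all DMSO libraries. Median-of-ratios scaling called STEAP1 lower at all of these times (adjusted p 0.00150 to 0.0345). With the mitochondrial genes left out it was called lower at 24 h and 96 h (0.00559 and 0.0189). At 24 h it was also called under quantile normalization (0.00839) and in a fit of both groups alone (0.0474). At 96 h it was called without 96 h replicate 1 (0.0291). Other alternatives left it uncalled. At 144 h the log2 difference from DMSO was -0.10 (95% interval -0.27 to 0.07). Long-term libraries had 48.0, 56.5 and 49.0 TPM, 27.8% of the DMSO mean, with no overlap (log2 fold change -1.83, adjusted p = 1.14e-11).

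STEAP2 moved differently up to 144 h. It had 85.8, 90.9 and 76.0 TPM in DMSO libraries, 109, 107 and 98.0 TPM at 96 h and 148, 117 and 142 TPM at 144 h, so that no library of these times overlapped DMSO. It was called higher at 96 h (0.31, adjusted p = 0.0293) and at 144 h (0.68, adjusted p = 4.74e-05). The 96 h call ended with no filter (adjusted p = 0.0689) and without either of DMSO replicates 1 and 3 or either of 96 h replicates 1 and 2 (0.0569 to 0.127). In long-term libraries STEAP2 had 39.4, 43.6 and 36.8 TPM, 47.4% of the DMSO mean (log2 fold change -1.06, adjusted p = 2.18e-07). The ratio of STEAP2 to STEAP1 TPM, which a single scaling factor per library does not alter, was 0.457 ± 0.0201 in DMSO, 0.789 ± 0.0584 at 144 h and 0.781 ± 0.0362 in long-term libraries (SD, n = 3 each). An antisense gene, STEAP2-AS1, overlaps both, but it reached at most 0.68 TPM, and the near copy STEAP1B reached at most 0.47 TPM. Of the 4 other STEAP relatives listed only STEAP3, an endosomal iron reductase, passed the filter, and it was called lower at 144 h (-0.61) and in long-term cells (-0.39, a call that ended without long-term replicate 1).

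Promoter sequence was held for 5 of the 9 genes (STEAP1, STEAP2, CD276, ERBB2 and TMEFF2), from RefSeq on GRCh38.p14. Shown are the 250 bases before the annotated start of 4 genes that differ in their course: TMEFF2, lower at every time; ERBB2, higher up to 144 h and then lower; and the STEAP neighbours, of which STEAP2 was higher at 144 h and STEAP1 was not. They lie at chr2:192194934-192195183 (minus strand), chr17:39687844-39688093 (plus), chr7:90211490-90211739 (plus, the first of 2 RefSeq starts of STEAP2) and chr7:90154219-90154468 (plus). The annotated starts are those of RefSeq. By GENCODE positions the TMEFF2 and STEAP2 windows lie inside the span of the gene, and the ERBB2 and STEAP1 windows run into it. Capitals mark matches to the motifs searched, and each sequence reads 5′ to 3′ on the gene's strand.
TMEFF2: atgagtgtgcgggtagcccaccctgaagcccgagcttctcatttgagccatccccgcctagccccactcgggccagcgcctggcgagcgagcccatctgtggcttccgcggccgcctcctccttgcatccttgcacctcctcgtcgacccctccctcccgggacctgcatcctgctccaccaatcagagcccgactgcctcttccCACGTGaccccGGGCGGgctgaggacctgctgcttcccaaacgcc
ERBB2: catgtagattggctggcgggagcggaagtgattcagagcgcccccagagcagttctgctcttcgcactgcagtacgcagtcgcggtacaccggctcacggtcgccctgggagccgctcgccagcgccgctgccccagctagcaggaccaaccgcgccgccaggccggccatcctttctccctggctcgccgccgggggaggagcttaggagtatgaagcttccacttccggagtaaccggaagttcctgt
STEAP2: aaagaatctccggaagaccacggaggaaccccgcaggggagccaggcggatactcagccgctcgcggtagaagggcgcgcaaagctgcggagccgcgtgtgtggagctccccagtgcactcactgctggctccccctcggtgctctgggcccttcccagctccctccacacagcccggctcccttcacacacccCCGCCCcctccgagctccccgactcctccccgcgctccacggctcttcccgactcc
STEAP1: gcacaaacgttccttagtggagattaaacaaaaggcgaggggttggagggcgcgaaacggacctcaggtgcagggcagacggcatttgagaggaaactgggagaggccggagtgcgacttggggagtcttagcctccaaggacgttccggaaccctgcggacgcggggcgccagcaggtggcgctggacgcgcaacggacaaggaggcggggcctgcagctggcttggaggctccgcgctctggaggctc
The motifs searched on both strands included TGTTTAC (a core forkhead motif), CACGTG (an E-box) and GGGCGG (a GC box, reverse CCGCCC). Of 35116 promoter windows of this length, 2.98% held the forkhead motif, 6.34% the E-box and 42.6% the GC box. The TMEFF2 window held 1 E-box and 1 GC box, the STEAP2 window held 1 GC box on the opposite strand, and neither the ERBB2 nor the STEAP1 window held any of the 3 motifs. All 4 windows were richer in G and C (64.4% to 69.6%) than the median window (58.0%), and they held 18 to 23 CpG pairs, against a median of 11. A window without a match says only that these letters are absent from 250 bases.

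ERBB2, at chr17:39687914-39730426 on the plus strand, had 18.9, 19.5 and 19.4 TPM in DMSO libraries, 24.3, 22.8 and 24.5 TPM at 24 h and 27.8, 24.1 and 26.0 TPM at 48 h. It had 31.0, 31.5 and 30.7 TPM at 96 h and 40.0, 35.1 and 38.1 TPM at 144 h. Every library of these times was above every DMSO library, and the 144 h mean was 196% of the DMSO mean. It was called higher at 24 h (0.30 ± 0.07 SE, adjusted p = 0.00993), 48 h (0.41, adjusted p = 3.75e-04), 96 h (0.66, adjusted p = 1.53e-06) and 144 h (0.94, adjusted p = 1.54e-08). In long-term libraries it had 9.92, 11.1 and 10.7 TPM, all below every DMSO library and 55.1% of the DMSO mean (-0.80, adjusted p = 4.43e-08). The genes PGAP3 and MIEN1 overlap the ends of ERBB2. In long-term cells, where ERBB2 was lower, both were called higher than in DMSO, PGAP3 by 0.23 (adjusted p = 0.0321) and MIEN1 by 0.73 (adjusted p = 7.32e-08).

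ERBB3, at chr12:56076799-56103505 on the plus strand, stood above ERBB2 in every library. It had 87.1, 97.9 and 83.2 TPM in DMSO libraries and 86.3, 77.1 and 85.1 TPM at 144 h, and the groups overlapped at all 4 timed points. At 144 h its log2 difference was -0.11 (95% interval -0.29 to 0.07). It was lower in long-term libraries, with 46.1, 53.8 and 50.8 TPM, 56.2% of the DMSO mean (-0.82, adjusted p = 5.95e-07). The ratio of ERBB2 to ERBB3 TPM was 0.216 ± 0.0168 in DMSO, 0.273 ± 0.0124 at 24 h, 0.304 ± 0.0150 at 48 h, 0.361 ± 0.0414 at 96 h, 0.456 ± 0.00820 at 144 h and 0.211 ± 0.00420 in long-term libraries (SD, n = 3 each). The lowest 144 h ratio, 0.447, was above the highest DMSO ratio, 0.233, while the long-term range of 0.207 to 0.215 lay inside the DMSO range.

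Of the other ErbB receptors, EGFR averaged 4.53 ± 0.562 TPM at 144 h and 2.71 ± 0.182 TPM in long-term cells, against 6.44 ± 0.380 TPM in DMSO, and was called lower at both (-0.43 and -1.002), while ERBB4 reached at most 0.02 TPM. Of 11 ligand genes 4 passed the filter. At 144 h 3 were called higher (26.6% of all genes) and 1 lower (16.4%), with a median of 0.74. In long-term cells 2 were higher (18.1% of all genes) and 1 lower (33.9%), with a median of 0.46. TGFA, a ligand of EGFR, had 3.56, 2.94 and 3.49 TPM at 144 h and 2.59, 2.81 and 2.48 TPM in long-term libraries, against 0.63, 0.79 and 1.03 TPM in DMSO (1.26 and 1.00). NRG3, a neuregulin known as a ligand of ERBB4, had 1.39, 1.06 and 1.11 TPM at 144 h and 3.96, 4.87 and 4.22 TPM in long-term libraries, while 2 DMSO libraries were listed at 0 and the other had 0.03 TPM. EGF was lower at both times (-0.65 and -1.28), with the 144 h call ending without 144 h replicate 3 (adjusted p = 0.0521), and HBEGF was called higher at 144 h alone (0.36), a call that ended under 8 of 14 alternatives, other scalings among them. NRG1 and NRG2, the neuregulins that bind ERBB3, did not pass the filter and reached at most 0.03 and 0.33 TPM.

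All 21 listed genes of ErbB signalling and receptor turnover passed the filter. At 144 h 12 were called higher (26.6% of all genes) and 3 lower (16.4%), with a median log2 fold change of 0.27. In long-term cells 7 were higher (18.1% of all genes) and 8 lower (33.9%), with a median of -0.14. The 144 h counts were 10 and 5 under median-of-ratios scaling and 9 and 6 under quantile normalization. Over all genes 7701 and 7399 were called under these scalings. Of those calls 46.8% and 49.7% were higher, against 61.9% on the deposited scale. LRIG1, a membrane protein that promotes the loss of ErbB receptors, had 11.3, 12.98 and 10.6 TPM in long-term libraries, against 72.1, 72.1 and 60.2 TPM in DMSO (-2.45), and it was lower at 144 h too (-0.91). IRS1, an adaptor of insulin receptor signalling, was also lower at both (-1.37 long-term and -0.73 at 144 h). PIK3R1, a regulatory subunit of PI3 kinase, was higher at both (1.42 long-term and 0.37 at 144 h), and ERBIN, a scaffold that binds ERBB2, was higher at 144 h (0.95) and at -0.16 in long-term cells.

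**Figure D3:**
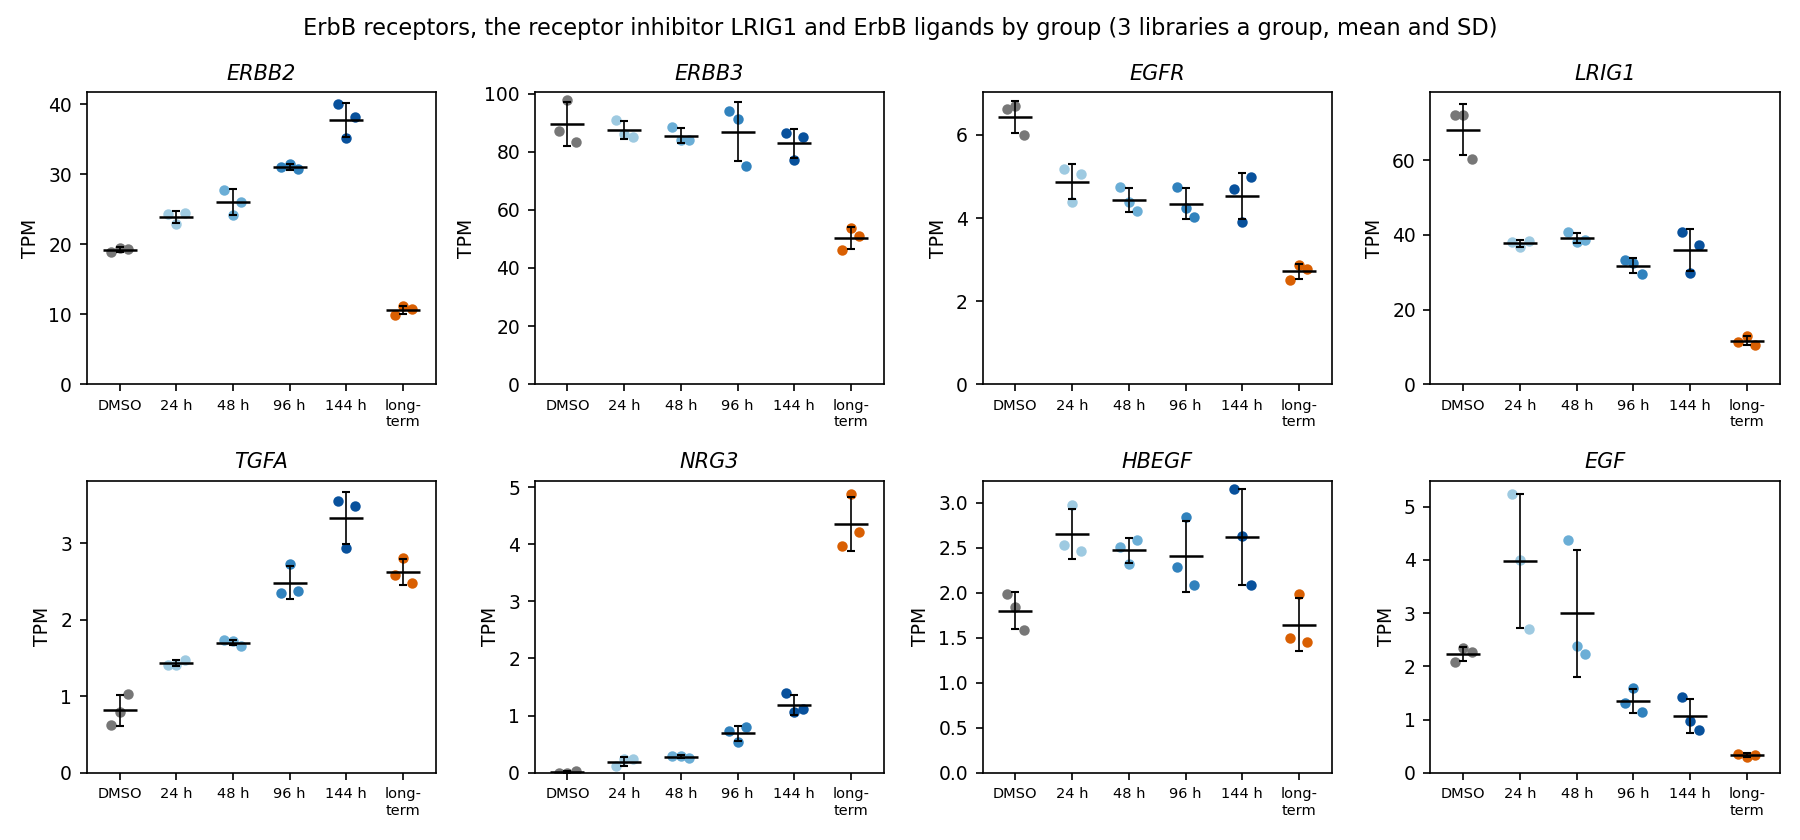
TPM (y axes, each from 0) of the ErbB receptors ERBB2, ERBB3 and EGFR, the receptor inhibitor LRIG1 and 4 ligand genes in the 6 groups (x axis), with points for the 3 libraries of a group and black bars for the mean and SD. ERBB2 is highest at 144 h and lowest in long-term cells, ERBB3 is lower in the long-term group alone, and NRG3 averages 4.35 TPM there.

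EPCAM, at chr2:47345158-47387601 on the plus strand, had 178, 169 and 176 TPM in DMSO libraries and between 174 and 209 TPM in all libraries from 24 h to 144 h. All 24 h and 48 h libraries stood above all DMSO libraries, but neither time passed the test (adjusted p = 0.194 and 0.390). Under quantile normalization EPCAM was called higher at 24 h, 48 h and 96 h (adjusted p = 0.0239, 0.0413 and 0.0282). At 144 h, with 175, 177 and 183 TPM, it overlapped DMSO, and its log2 difference was 0.03 (95% interval -0.11 to 0.18). Long-term libraries had 93.9, 97.9 and 87.1 TPM, 53.3% of the DMSO mean and below every other library of the series (-0.90, adjusted p = 1.18e-08). Of 12 EPCAM partners and relatives 9 passed the filter. At 144 h 5 were called higher (26.6% of all genes) and 0 lower (16.4%), with a median of 0.32. In long-term cells 2 were higher (18.1% of all genes) and 4 lower (33.9%), with a median of -0.27. Under median-of-ratios scaling 4 were higher and 2 lower at 144 h, where 46.8% of the 7701 calls over all genes were higher, against 61.9% on the deposited scale. CD9, a tetraspanin that associates with EPCAM, was among those higher at both, with 564 ± 38.9 TPM in long-term cells and 509 ± 37.3 TPM at 144 h, against 372 ± 16.2 TPM in DMSO. ST14, a membrane protease, and CDH1, the epithelial cadherin, were lower in long-term cells (-0.65 and -0.41), and the CDH1 call ended without DMSO replicate 2 (adjusted p = 0.0564).

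The short and long exposures were also compared with each other. Between 144 h and 24 h, 4 of the 9 genes were called higher, where 18.6% of all genes were, and 2 lower, where 11.1% were. STEAP2 was higher by 0.76 (adjusted p = 3.45e-05), CD276 by 0.64 (adjusted p = 1.51e-04), ERBB2 by 0.64 (adjusted p = 2.95e-06) and FOLH1 by 0.33 (adjusted p = 0.0198), while PSCA was lower by -0.62 (adjusted p = 0.00470) beside TMEFF2. The FOLH1 call ended with no filter and without 24 h replicate 2, 24 h replicate 3 or 144 h replicate 1 (adjusted p 0.0518 to 0.0933). Between long-term and 144 h, 0 of the 9 were called higher, where 9.23% of all genes were, and 8 lower, where 36.8% were, with PSCA the exception. TMEFF2 differed most, by -2.51, followed by ERBB2 and STEAP2 (-1.74 each) and STEAP1 (-1.73). EPCAM differed by -0.94, CD276 by -0.72, ERBB3 by -0.71 and FOLH1 by -0.41. The FOLH1 difference was smaller under median-of-ratios scaling, at -0.17 (adjusted p = 0.0456). The median of all genes in that comparison was -0.19 and became 0.01 under median-of-ratios scaling, where 52.0% of all calls were higher in place of 20.04%. The long-term libraries also had a higher mitochondrial share, whose part in these values was not tested. With the mitochondrial genes left out, the median of all genes against 144 h was -0.085. On that scale 0 of the 9 genes were called higher and 8 lower than at 144 h. Over all genes 7219 were called in that comparison, 35.5% of them higher. Against DMSO 2 of the 9 were called higher and 7 lower, beside 8680 calls over all genes, 48.6% of them higher.

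**Figure D4:**
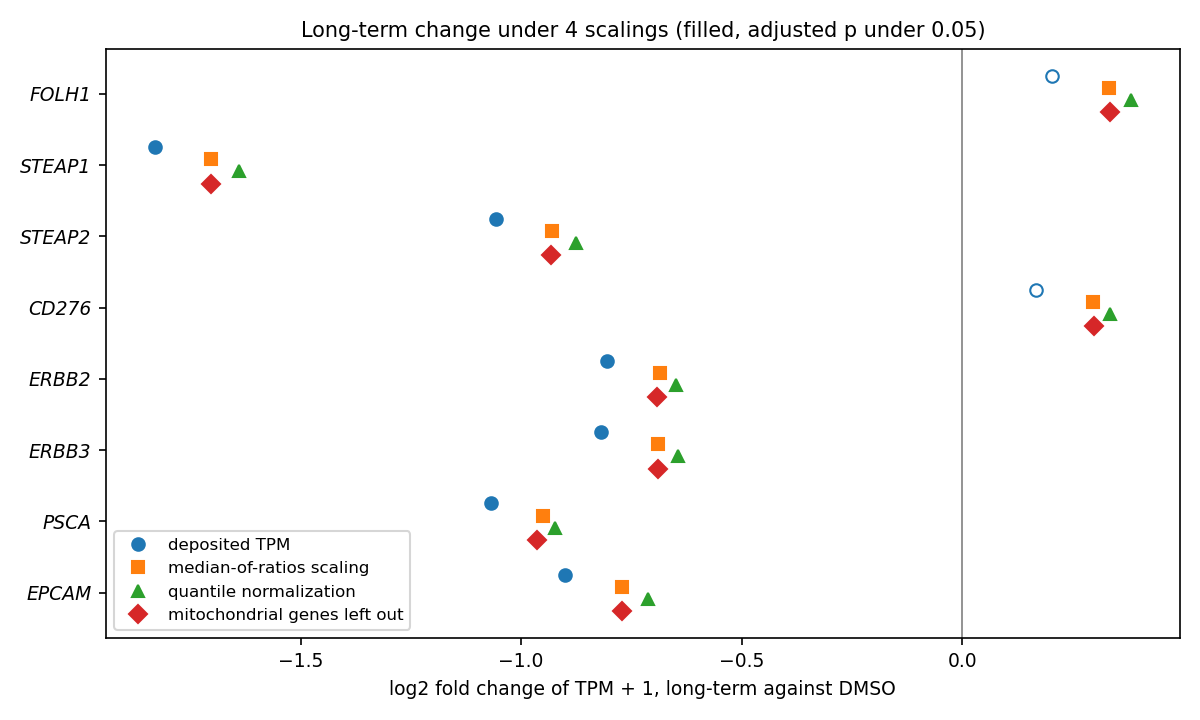
Log2 fold change of TPM + 1 in long-term cells against DMSO (x axis) of 8 of the 9 genes (rows, TMEFF2 left out because its value of -7.47 lies far to the left) under 4 scalings, with filled symbols where the adjusted p was under 0.05. STEAP1, STEAP2, ERBB2, ERBB3, PSCA and EPCAM lie left of 0 and are filled under all 4, whereas FOLH1 and CD276 lie right of 0 and are filled under every scaling but the deposited one.

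The order of the 9 transcripts by level changed with treatment. In DMSO it ran from FOLH1 (269 ± 35.2 TPM) through STEAP1, TMEFF2, EPCAM, CD276, ERBB3, STEAP2 and ERBB2 to PSCA (18.04 ± 1.02 TPM), where STEAP1 and TMEFF2 overlapped, as did CD276, ERBB3 and STEAP2 with their neighbours. At 144 h the order was FOLH1 (409.8 ± 33.3 TPM), EPCAM, CD276, STEAP1, STEAP2, ERBB3, ERBB2, PSCA and TMEFF2, with overlap between EPCAM and CD276 and between CD276 and STEAP1. In long-term cells it was FOLH1 (309.7 ± 34.7 TPM), CD276, EPCAM, STEAP1, ERBB3, STEAP2, ERBB2, PSCA and TMEFF2, with overlap between CD276 and EPCAM and between STEAP1 and ERBB3. The distance between PSMA and STEAP1 transcripts widened: the ratio of FOLH1 to STEAP1 was 1.46 ± 0.126 in DMSO, 2.39 ± 0.178 at 144 h and 6.04 ± 0.131 in long-term libraries (SD, n = 3 each). CD276 to EPCAM was 0.545 ± 0.0486 in DMSO, 0.990 ± 0.131 at 144 h and 1.15 ± 0.116 in long-term libraries.

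Of 33 other genes for surface proteins that have been tried as targets in cancer, 18 passed the filter. At 144 h 10 were called higher (26.6% of all genes) and 4 lower (16.4%), with a median of 0.27. In long-term cells 7 were higher (18.1% of all genes) and 7 lower (33.9%), with a median of -0.12. The 144 h counts were 7 higher and 6 lower under median-of-ratios scaling and 9 and 6 under quantile normalization. Of all genes called, 46.8% and 49.7% were higher under these scalings, against 61.9% on the deposited scale. TRPM8, an androgen-regulated cation channel, was lower at both (-3.49 at 144 h and -2.42 long-term), with 1.55, 2.64 and 2.61 TPM in long-term libraries, against 14.5, 21.3 and 13.99 TPM in DMSO. SLC44A4, a choline transporter family member, had 75.0, 75.3 and 76.4 TPM at 144 h, against 50.3, 49.3 and 45.1 TPM in DMSO (0.64), but 0.56, 0.53 and 0.66 TPM in long-term libraries (-4.96). CD24, a heavily glycosylated anchor protein that binds Siglec-10, and NECTIN4, a cell adhesion protein, were higher at both, by 1.57 and 1.19 at 144 h and by 1.41 and 1.40 in long-term cells. NECTIN4 was still low there, at 5.97 ± 0.333 TPM, against 1.64 ± 0.183 TPM in DMSO. ADAM9, a membrane metalloprotease, was lower in long-term cells (-1.78).

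For the 4 members with a called log2 fold change of 1 or more in size, the genes with the most similar course were found by the root mean square (RMS) difference of the 5 log2 fold changes against DMSO, over 10045 genes with a mean of at least 5 TPM. STEAP1 was closest to RAB27A (RMS difference 0.101, beside an RMS of 0.831 for the changes of STEAP1 themselves), TJP1 (0.125) and TPD52 (0.131). STEAP2 was closest to COBL (0.113), C1orf115 (0.121) and SH3RF1 (0.131), and PSCA to SELENOP (0.155), DBI (0.162) and GPR158 (0.169). For TMEFF2 the closest was ELOVL7, with an RMS difference of 1.17 beside an RMS of 4.43 for TMEFF2 itself, and it changed by -1.61 at 24 h, -3.72 at 144 h and -5.19 in long-term cells.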

How the data were processed

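RNA was measured in 18 libraries of the 16D cell line, 6 groups of 3. Per the labels' protocols, poly(A) RNA was made into strand-specific libraries with single-end reads of 50 bp. The authors deposited a table of TPM, 1 value per gene and library. The submitters' processing notes name STAR, RSEM, Partek, hg38 and GRCh38 without versions or roles, and whether counting used the strand is not given in the sources used here. Each library sums to about 1000000 TPM, and no read counts were held, so no counting error can be given. No 2 libraries were identical (0 pairs). The authors' mean columns equalled the means of the libraries, and their fold columns were not used.

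TPM were transformed to log2(TPM + 1). Genes with at least 1 TPM in at least 3 libraries were tested, 16169 of 60623. A linear model of 6 group means was fitted with limma 3.58.1 in R 4.3.3 with a variance trend, and p-values were two-sided and adjusted by Benjamini and Hochberg over all genes tested within each of 7 comparisons. Other steps used Python 3.11.15, numpy 2.4.6, pandas 2.3.3 and matplotlib 3.10.9. Gene positions come from GENCODE release 29 (GRCh38). The 9 genes and the gene lists were chosen with earlier results of these data known. From each list, up to 4 genes with the largest change among those called at 144 h or long-term against DMSO could be named, and the genes of similar course are the 3 with the smallest RMS difference for each member with a called change of at least 1. Some items that these rules would name are not reported here. Alternatives were no filter or one of 5 TPM, a pseudocount of 0.1, 3 other scalings, a fit of both groups alone, no variance trend, a replicate block and leaving out each library. On simulated data of 16169 genes for 24 h against DMSO, 98 of 100 genes changed by 1 and 74 of 100 changed by 0.5 were recovered. Of the unchanged genes 11 were called. The noise was normal with each gene's fitted spread, and the changed genes were drawn only from those above about 5 TPM in DMSO. Recovery of lower genes was not simulated.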

Additional observations from a re-analysis of the deposited data

Results flagged for a closer look

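Several genes differed in their change against DMSO between treated groups, by limma's test of the difference itself. Between 144 h and 24 h the change of FOLH1 differed by 0.33, that of STEAP2 by 0.76, that of CD276 by 0.64, that of ERBB2 by 0.64, that of PSCA by -0.62 and that of TMEFF2 by -3.54 (144 h minus 24 h, log2 scale). Between long-term and 144 h the change of FOLH1 differed by -0.41 (-0.17 under median-of-ratios scaling), that of STEAP1 by -1.73, that of STEAP2 by -1.74, that of CD276 by -0.72 and that of ERBB2 by -1.74. In the same comparison ERBB3 differed by -0.71, EPCAM by -0.94 and TMEFF2 by -2.51 (-5.25 with a pseudocount of 0.1). For STEAP2 and ERBB2 the change against DMSO was positive at 144 h and negative in long-term cells, and both signs passed the test.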

How the results depend on the processing

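Over 63 values (9 genes in 7 comparisons) and 15 alternatives each, 0 changed sign while called, 36 of 41 calls held in every alternative and 5 ended in at least 1, while 16 of 22 values that were not called were called in at least 1. At 24 h against DMSO 3 genes were called, but 5 under median-of-ratios scaling, 7 under quantile normalization and 6 with the mitochondrial genes left out, and 2 to 4 when 1 library was left out. Under each of these scalings STEAP1 was called lower and FOLH1 higher at 24 h, and CD276 was called higher under the last 2. At 48 h 5 genes were called, but 3 with no filter and 3 to 5 without 1 library. Leaving out 1 library gave 5 to 6 called genes at 96 h, 6 at 144 h, 7 to 8 long-term, 5 to 6 for 144 h against 24 h and 8 for long-term against 144 h. Over all genes 1321 were called at 24 h, 2026 under median-of-ratios scaling, 1842 under quantile normalization and 1907 with the mitochondrial genes left out. Without 1 library 869 to 1006 were called at 24 h, with 869 without DMSO replicate 1. At 48 h 2823 of all genes were called, 2514 with no filter and 2010 to 2226 without 1 library. Without 1 library 3781 to 4252 were called at 96 h, 5986 to 6552 at 144 h and 7334 to 8406 long-term. The ranges were 3785 to 4439 for 144 h against 24 h and 5979 to 7774 for long-term against 144 h. The share of all calls that were higher was 56.2% at 24 h, 61.9% at 144 h, 34.8% long-term and 62.5% for 144 h against 24 h, and became 44.3%, 46.8%, 47.6% and 47.4% under median-of-ratios scaling. At 144 h STEAP1 and ERBB3 were called lower under that scaling (-0.21 each). The cause was not tested. With the replicate number as a block 1210 genes were called at 24 h and 8308 long-term, and 0 calls of the 9 genes changed. Same-numbered libraries did not deviate together (correlations -0.159 to 0.144 over 21 pairs of libraries in 7 comparisons). No pairing by number was seen, but 3 libraries a group cannot exclude one.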

Other observations

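Values of the tested coding genes nearest to the members, 3 on each side at any distance, were looked up after the members' values were seen. All 6 neighbours of EPCAM were called lower in long-term cells against DMSO (log2 fold change -1.37 to -0.49), and 3 of 6 were lower at 144 h, where 33.9% of all genes tested were called lower long-term and 16.4% at 144 h. Of the neighbours of ERBB2, 4 of 6 were higher at 144 h (26.6% of all genes), and 3 were higher (18.1% of all genes) and 0 lower in long-term cells, where ERBB2 itself was lower. GRB7, an adaptor gene next to ERBB2, changed by 0.62 at 144 h, while its long-term value was 0.07. Of the 6 neighbours of STEAP2, STEAP1 among them, 2 were higher (26.6% of all genes) and 1 lower (16.4%) at 144 h. In long-term cells 1 was higher (18.1%) and 5 were lower (33.9%). CFAP69, which follows STEAP2 after 7.04 kb, had the same signs as STEAP2 (0.73 at 144 h and -0.46 long-term). GTPBP10, the next gene, was lower at both (-0.18 and -0.54). Of the 6 neighbours of TMEFF2, 4 were lower at 144 h and 5 in long-term cells, against the same shares of 16.4% and 33.9% of all genes. These neighbours lay 252 to 4444 kb from TMEFF2. ADAM22 and SRI, counted among the neighbours of STEAP2, lay 1965 and 1941 kb from STEAP2.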
